A study of Rattus norvegicus with 192 samples.

Results

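The genes described here are those whose 3′ mRNA counts were concentrated in the prefrontal cortex (PFC) of casein-fed Zucker Diabetic Fatty (ZDF) rats. In the count tables of ZDF liver, kidney, adipose tissue and PFC, each gene was given its median over the casein libraries of each tissue, in CPM (counts scaled to the total of the library). A gene was kept at a PFC median of at least 20 CPM and at least 10 times that of every other tissue, a gene absent from a table being taken as 0. Of the 11291 genes in the 4 ZDF tables, 657 passed, and the 150 with the highest PFC medians are the PFC-enriched genes described below. They were selected on the casein ZDF medians of the 4 tissues, so their high level in those PFC libraries is not a result.

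The study fed ZDF rats (fa/fa), which lack a working leptin receptor and develop type 2 diabetes, and their lean controls (fa/+) a diet with whole egg or casein as the protein source. All rats were male, arrived at 6 weeks of age and ate a diet with 20% protein for 8 weeks, and every group held 6 rats. Genotype was read from the column names of the count tables. For 12 of the 24 rats the strain named in the labels is the other one, while diets agree for all mRNA libraries, so values are also given for the genotypes of the labels where a call depends on them. The lean controls carry 1 fa allele, the tissue was a dissected block of mixed cells, and in such bulk tissue fewer cells of a type cannot be told apart from less RNA per cell.

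The prefrontal cortex is a mix of neurons, the oligodendrocytes that wrap their axons in myelin, astrocytes, microglia and vessels. Neurons spend much of their mRNA on the cytoskeleton of axons and dendrites and on the machinery of synapses, and oligodendrocytes on the proteins of myelin, so transcripts of these kinds are typical of brain and scarce in liver, kidney and fat. Peripheral tissues are not free of them, since nerve fibres and their Schwann cells run through these organs.

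The count tables carry Ensembl identifiers and do not pair them with names. The study's own list of called genes pairs 550 identifiers with a symbol, and 8 of the 150 genes are among them. Map1b encodes a microtubule-associated protein of axons and dendrites, and Rtn1 a reticulon of the neuronal endoplasmic reticulum. Pclo encodes piccolo, a scaffold of the presynaptic active zone, Rgs4 a regulator of G protein signalling, and Chd5 a chromatin remodeller found mainly in neurons. Mbp encodes myelin basic protein, a main constituent of the myelin sheath, and Tspyl4 belongs to the TSPY-like family. The eighth, AY172581.14, is named after a sequence record of the rat mitochondrial genome. Because a symbol was at hand only for genes the study had called in some tissue (Map1b, Mbp, Pclo, Rgs4, Chd5 and Tspyl4 in ZDF liver, Rtn1 in ZDF kidney and AY172581.14 in ZDF PFC), the direction of those genes in those comparisons is not independent evidence.

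Of the 8 named genes, 7 had a promoter in the RefSeq table (build GRCr8), and the 250 bases before the start site are shown for the 3 that held a searched motif at a single listed start. These 3 genes were among those with low values in the libraries of rats 3 and 5 described further on. Letters run 5′ to 3′ on the strand of the gene, and capitals mark a motif match.
Map1b: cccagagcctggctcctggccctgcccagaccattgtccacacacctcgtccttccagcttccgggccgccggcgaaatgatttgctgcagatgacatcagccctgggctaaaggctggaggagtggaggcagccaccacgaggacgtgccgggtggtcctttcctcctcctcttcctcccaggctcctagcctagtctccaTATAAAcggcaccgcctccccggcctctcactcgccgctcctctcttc
Rgs4: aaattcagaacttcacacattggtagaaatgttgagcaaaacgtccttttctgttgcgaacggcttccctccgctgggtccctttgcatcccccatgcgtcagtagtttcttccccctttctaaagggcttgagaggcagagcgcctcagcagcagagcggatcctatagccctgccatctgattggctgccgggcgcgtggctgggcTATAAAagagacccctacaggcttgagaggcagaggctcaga
Tspyl4: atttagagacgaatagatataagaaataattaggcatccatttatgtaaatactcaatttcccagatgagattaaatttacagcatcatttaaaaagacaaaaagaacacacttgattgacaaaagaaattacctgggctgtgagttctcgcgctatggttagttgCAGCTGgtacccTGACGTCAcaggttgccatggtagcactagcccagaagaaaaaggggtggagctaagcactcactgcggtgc
The Map1b promoter lies at chr2:32644472-32644721 (minus strand) and holds TATAAA, whose first base is 48 bases before the start site. That of Rgs4 lies at chr13:84475885-84476134 (minus strand), with TATAAA at 42 bases. That of Tspyl4, at chr20:39653538-39653787 (plus strand), holds the palindromes TGACGTCA at 72 bases and CAGCTG at 84 bases, which do not overlap.

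The motifs were searched on both strands. Of the 33469 rat promoters of the same length, 12.9% hold the TATA box TATAAA and 12.0% the E-box CAGCTG. The other E-box searched, CACGTG, is held by 5.59%, the cAMP response element TGACGTCA by 1.59% and the NRF1 site by 0.762%. No match was found before the listed starts of Pclo, Chd5 and Rtn1. Of the 2 starts listed for Mbp on chromosome 18, 1 has CAGCTG at 78 bases. The share of G and C was 82% for Chd5 and 68% for Pclo, with 40 and 29 CG dinucleotides, and it was 63.6% for Map1b, 47.6% for Rtn1 and 40.4% for Tspyl4, against a median of 51.2% and 5 CG dinucleotides over all promoters.

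At the limit of 150 genes, the last 3 genes kept had casein ZDF PFC medians of 232, 226 and 222 CPM, and the first 3 left out had 220, 219 and 216 CPM. The smallest folds over the next tissue among the genes kept were 10.4, 10.6 and 10.6 (the second for Tspyl4), and the largest folds just outside were 9.98, 9.82 and 9.79. Map1b had the highest casein ZDF median, at 5319 CPM, with Mbp at 3426 CPM and Rtn1 at 3195 CPM. The libraries count 1 tag near the 3′ end of each transcript, so CPM were compared between genes without a correction for length.

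Before any comparison, 2 PFC libraries stood apart from the rest. The casein ZDF libraries of rats 3 and 5 held 67861 and 164795 counts, while the other 10 ZDF libraries held 1293843 to 7080897 and the 12 lean libraries 2015473 to 4600987. The 150 genes took 5.37% of the counts in rat 3 and 3.53% in rat 5, against 11.3% to 13.9% in the other ZDF libraries and 9.77% to 12.1% in the lean libraries. Over the 8289 genes that both PFC tables hold, the lean range was 10.9% to 13.2%. A single gene took 35.8% and 46.1% of the counts of rats 3 and 5, and 5.41% to 15.0% in the other 22 libraries.

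Many of the named genes were low in these 2 libraries, and Mbp was not. Map1b stood at 1267 CPM in rat 3 and 995 CPM in rat 5, and Mbp at 3935 CPM and 5328 CPM. Chd5 and Pclo were low only in rat 3, since their values in rat 5 (407 and 334 CPM) were inside their lean ranges. Of the 3 other genes listed for oligodendrocytes that have an identifier, Car2 was below its lean range in both libraries (29.5 and 18.2 CPM against 30.8 to 91.9), Qdpr was below it in rat 5 alone (66.7 CPM against 109.9 to 279), and Plekhb1 was inside it in both. The ratio of Mbp to Map1b was 3.10 and 5.35, against 0.355 to 0.628 in the other ZDF libraries and 0.219 to 1.12 in the lean libraries. The mean of rats 3 and 5 was under 0.5 times the median of the other 10 ZDF libraries for 129 of 143 PFC-enriched genes, leaving out a set of 7 described below, which is 90.2%. Among the 5055 genes of the table with a median of at least 20 CPM it was 69.7%.

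Of 7 marker genes listed for adipose tissue and 8 for liver, 3 and 2 have an identifier, and all of these were high in rats 3 and 5. Adipoq, the adipocyte hormone adiponectin, stood at 516 CPM in rat 3 and 97.1 CPM in rat 5, against 3.71 to 40.2 CPM in the lean libraries. Fabp4, Lpl, Apoa1 and Cyp2e1 were also above their lean range in both libraries, at 60.7 to 973 CPM. The part of these transcripts, and of the low depth, in the results below was not tested, so group means and tests in the PFC that turn on rats 3 and 5 are also given without them.

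**Figure D1:**
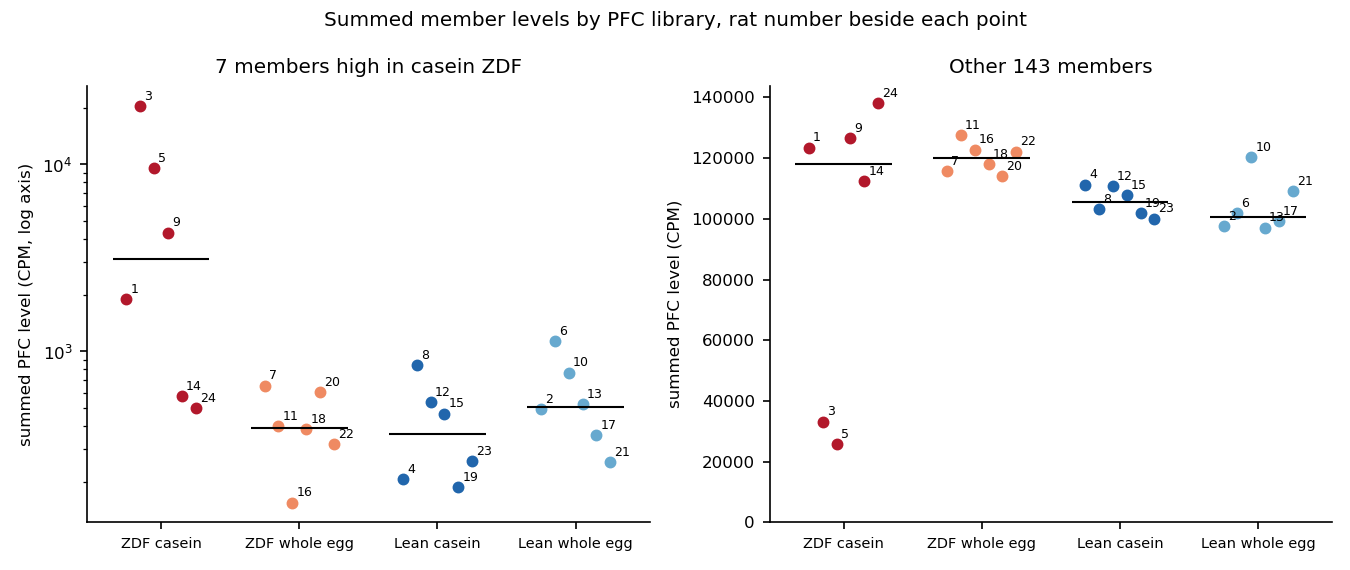
Summed level of the PFC-enriched genes in each PFC library, in CPM, by genotype and diet. Rats 3 and 5 lie below all other libraries for the 143 genes and above them for the set of 7.

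The plot of summed CPM shows rats 3 and 5 apart from the other 22 libraries for both sets of genes. The 143 genes summed to 33186 CPM in rat 3 and 25802 CPM in rat 5, below the range of 112533 to 138154 CPM in the other 10 ZDF libraries and of 97143 to 120330 CPM in the lean libraries.

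The ranges of Map1b and Mbp overlapped across the 4 groups. Map1b had 995, 5319 and 6863 CPM (lowest, median, highest) in casein ZDF rats and 6201, 6908 and 7685 CPM in whole egg ZDF rats. In casein lean rats it had 5613, 6269 and 7349 CPM, and in whole egg lean rats 5662, 6320 and 7640 CPM. The groups overlapped, with only rats 3 and 5, and to a lesser degree rat 9 at 4376 CPM, below the lean range. The mean was 4370 ± 2652 CPM in casein ZDF rats (SD, n = 6), 5990 ± 1104 CPM without rats 3 and 5 (SD, n = 4), 6910 ± 614 CPM in whole egg ZDF rats, 6354 ± 596 CPM in casein lean rats and 6543 ± 965 CPM in whole egg lean rats (SD, n = 6 each).

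Mbp varied more than Map1b in both lean groups. It had 2118, 3426 and 5328 CPM in casein ZDF rats, 2730, 3056 and 3415 CPM in whole egg ZDF rats, 1629, 3183 and 6277 CPM in casein lean rats and 1673, 3119 and 6005 CPM in whole egg lean rats. Its casein ZDF mean was 3544 ± 1134 CPM (SD, n = 6), and 3000 ± 798 CPM without rats 3 and 5 (SD, n = 4). All 6 whole egg ZDF values lay inside the range of each of the other groups. Rtn1 had 328, 3195 and 4530 CPM in casein ZDF rats and 2625, 3383 and 3594 CPM in whole egg ZDF rats. In lean rats Rtn1 had a narrower range, 2379 to 2931 CPM in casein rats and 2285 to 3029 CPM in whole egg rats, and 5 of the 6 whole egg ZDF rats were above every lean rat. So were the 4 casein ZDF rats other than rats 3 and 5, at 3184 to 4530 CPM. These CPM were scaled to the total of each table, over 8354 genes in the ZDF and 11379 genes in the lean PFC. The 150 genes took 11.1% of the counts of casein lean rat 12 in its table, and 12.5% over the genes both tables hold. The part of these unlike totals in the gap was not tested. On whole egg the genotype difference of Rtn1 was 0.16 on the log2 scale (SE 0.28, edgeR adjusted p = 1.00). Without rats 3 and 5 in the fit it was 0.16 on whole egg (SE 0.13, adjusted p = 0.958) and 0.06 on casein (SE 0.14, adjusted p = 0.926).

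The 4 other nuclear genes with a symbol stood lower, and the order of their groups depended on rats 3 and 5. Group means of Pclo lay between 391 ± 117 CPM (casein lean) and 476 ± 211 CPM (casein ZDF), those of Rgs4 between 325 ± 49.4 CPM (casein lean) and 355 ± 69.3 CPM (whole egg ZDF), those of Chd5 between 358 ± 145 CPM (casein ZDF) and 428 ± 99.5 CPM (whole egg ZDF), and those of Tspyl4 between 269 ± 148 CPM (casein ZDF) and 342 ± 78.8 CPM (whole egg ZDF, SD, n = 6 each). For each of these genes the ranges of the 4 groups overlapped. Without rats 3 and 5 the casein ZDF mean was 590.5 ± 131 CPM for Pclo, 463 ± 65.7 CPM for Rgs4, 399 ± 132 CPM for Chd5 and 354 ± 88.6 CPM for Tspyl4 (SD, n = 4 each), which made it the highest of the 4 groups for Pclo, Rgs4 and Tspyl4. The gap of Rgs4 to casein lean rats was then larger than either SD, with 375 to 520 CPM against 284 to 422 CPM, and its genotype difference on casein in the fit was 0.16 on the log2 scale (SE 0.16, edgeR adjusted p = 0.799). The CPM of this gap, like those of Rtn1, were scaled to totals over unlike sets of genes, while the fit used only genes both tables hold.

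**Figure D2:**
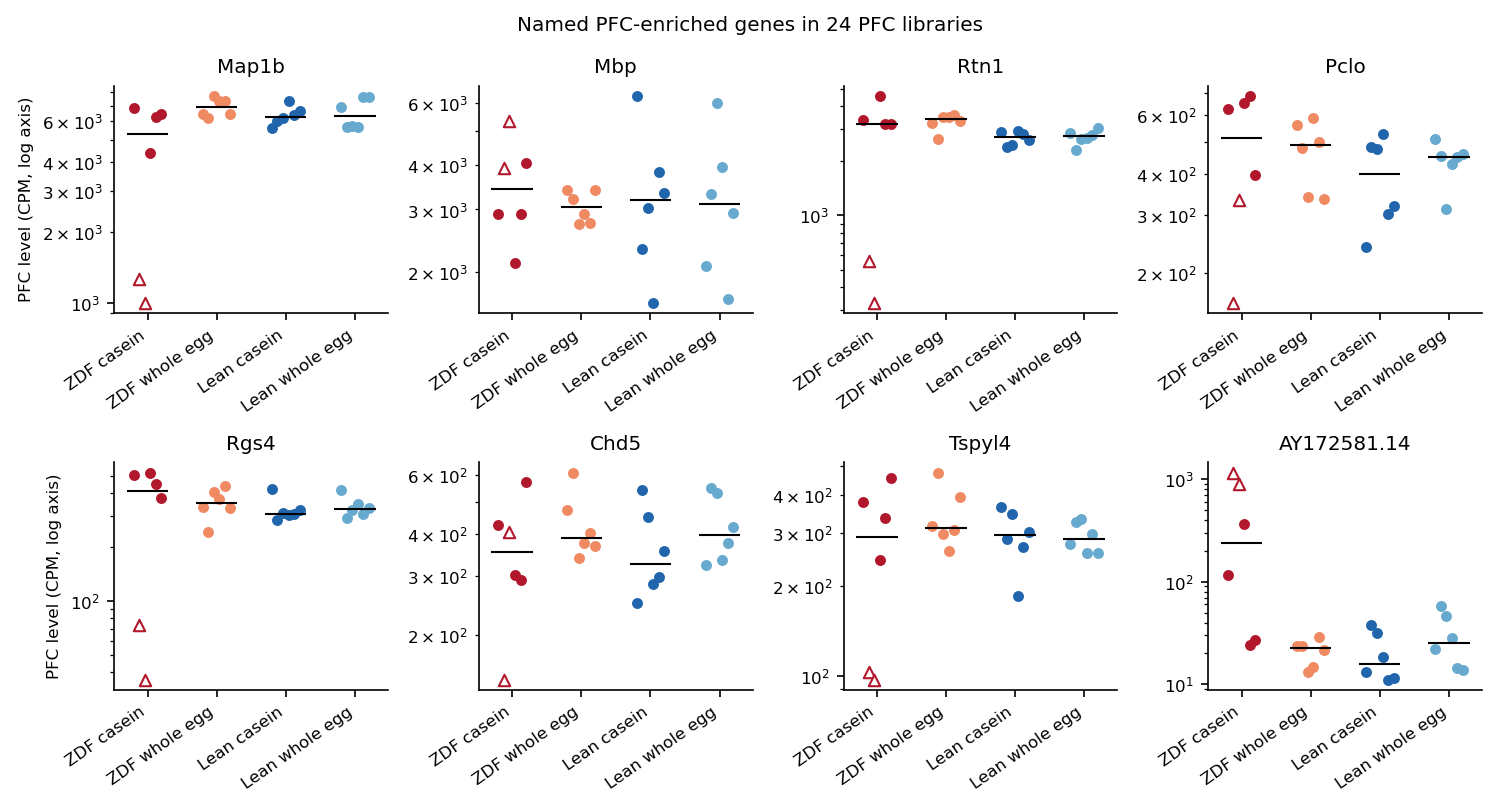
Level of the 8 named genes in each PFC library, in CPM, with 1 point per rat and a line at the group median. Open triangles are rats 3 and 5, which lie below the other casein ZDF rats for Map1b and above all other rats for AY172581.14.

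The plot of named genes shows the open triangles of rats 3 and 5 below the other casein ZDF rats for Map1b, Rtn1, Pclo, Rgs4 and Tspyl4 and at the top for AY172581.14.

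Enrichment in the PFC held for most of the genes in rats whose values did not choose them. In whole egg ZDF rats, 138 of the 150 had a PFC median of at least 20 CPM and at least 10 times that of liver, kidney and adipose tissue, where 13.9% of all genes at 20 CPM or more in the PFC were as enriched. The median fold was 54.5 and the lowest 0.902. In casein lean rats it was 130 of 150, against 13.3% of all genes, with a median fold of 49.4 and a lowest of 0.633. In whole egg lean rats, where only kidney and adipose tissue could be set against the PFC, it was 134 of 150, against 14.2% of all genes, with a median fold of 33.1.

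Chd5 kept one of the steepest profiles among the named genes, with a PFC median 112-fold that of the next tissue in whole egg ZDF rats and 67.4-fold in casein lean rats. Mbp was 42.9-fold and 69.3-fold higher in the PFC, Rtn1 32.2-fold and 20.1-fold, and Map1b 16.9-fold and 21.7-fold. Rgs4 was the named gene that fell short, at 12.9-fold in whole egg ZDF rats but 8.38-fold in casein lean and 7.71-fold in whole egg lean rats. Of the genes under 10-fold, 5 of 12 in whole egg ZDF, 5 of 19 in casein lean and 3 of 16 in whole egg lean rats belonged to the set of 7 described below. The identity of the 150 also depended on rats 3 and 5, since the rule without these libraries kept 133 of the 150. Of the 150, 149 still passed both thresholds, so most of the losses came from the limit of 150 genes. With TMM-scaled CPM the rule also kept 133.

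**Figure D3:**
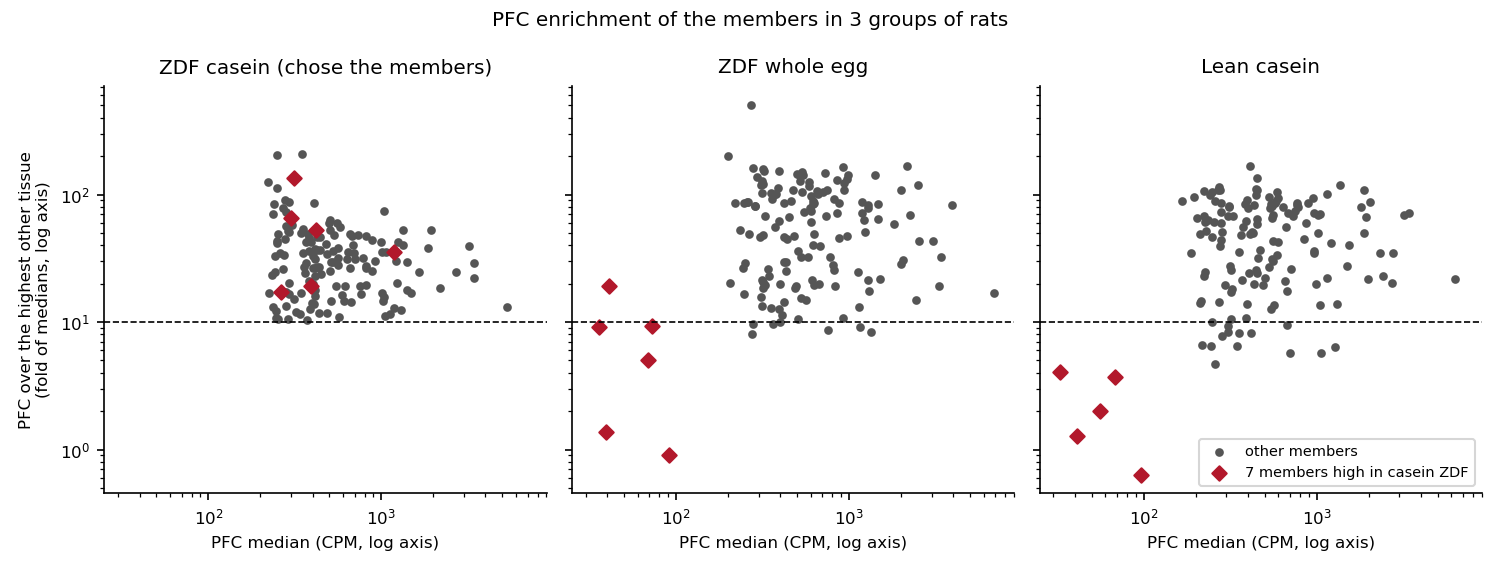
Fold of the PFC median over the highest median of another tissue, against the PFC median in CPM, for each of the 150 genes in casein ZDF, whole egg ZDF and casein lean rats (log axes), with a dashed line at 10 times. Genes at 0 in every other tissue have no point, and 138 genes in whole egg ZDF and 130 in casein lean rats met both limits of the rule.

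The enrichment plot shows the genes above the line of 10 times in casein ZDF rats by construction, and a small number of genes below that line in the other groups.

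Among the 12 lean PFC libraries, which the rule did not use, the enriched genes were about as variable as other genes. The median SD of log2 CPM was 0.343 over the 144 genes with a lean median above 100 CPM, and 0.330 over 1240 other genes at that level. Rtn1 was among the steadiest, with an SD of 0.127, and Map1b had 0.169. Mbp, with 0.628, ranked 20th of the 150 in spread, and its level ran from 1629 to 6277 CPM.

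The gene's pattern over the 12 lean libraries was shared by part of the list. The 5 genes most like Mbp, none with a symbol, had Pearson correlations of log2 CPM of 0.77 to 0.87 with it. Of all 150, 28 correlated with Mbp at over 0.5 and 18 at under -0.5. The share among other PFC genes was not computed, so these counts are not read as a trait of the 150. Among named genes, Tspyl4 had 0.60, Map1b -0.74 and Pclo -0.81, so that rats high in Mbp (rats 4 and 10, with 6277 and 6005 CPM) were low in Pclo (240 and 312 CPM). These correlations describe 12 libraries that share total counts as the denominator.

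**Figure D4:**
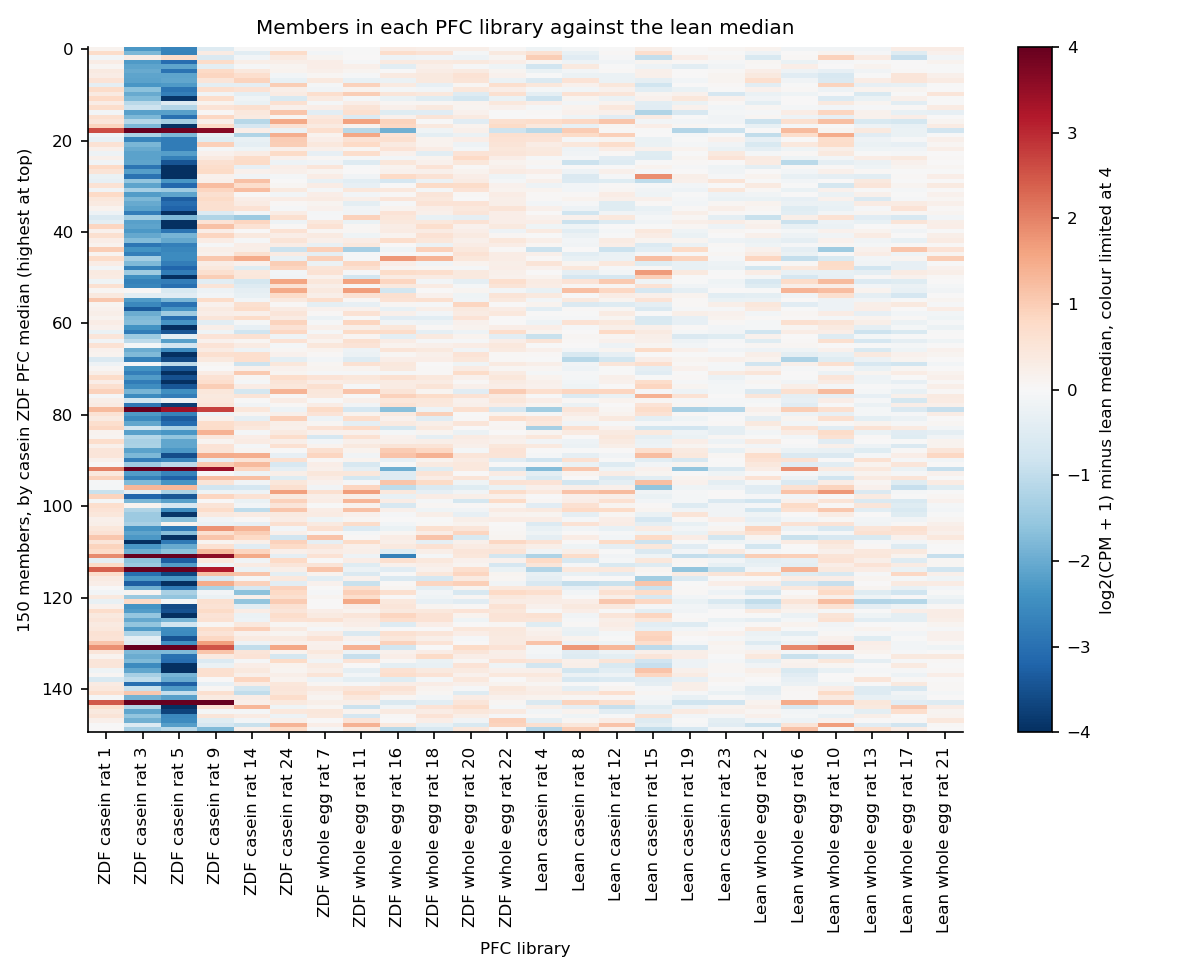
Level of each of the 150 genes (1 line per gene) in each PFC library (1 column per rat, by genotype and diet), as log2(CPM + 1) minus the gene's lean median. Rats 3 and 5 are low for most genes, and the set of 7 is high in casein ZDF rats 1, 3, 5 and 9.

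The heatmap shows the low columns of rats 3 and 5 over most genes and the 7 lines, spread over the range of levels, that are high in rats 1, 3, 5 and 9.

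Whole egg was compared with casein in the lean PFC, in rats the rule did not use. None of the 150 genes changed at a false discovery rate of 5% (edgeR quasi-likelihood test with Benjamini-Hochberg adjustment over all 11379 genes, 6 against 6), where 0% of all genes were called. At an unadjusted p under 0.05 there were 0 of 150, where 3.3% of all genes passed. DESeq2 called 0 genes, and limma-voom with quality weights called 0, with 12 of the 150 at an unadjusted p under 0.05. The share of all genes in the limma-voom fit is not given here, so that count is not read further. The median log2 fold change was -0.04 over the 150 genes and 0.01 over all genes.

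Among single genes in lean rats, Map1b differed by -0.004 on the log2 scale (SE 0.16), Mbp by -0.04 (SE 0.31), Rtn1 by -0.03 (SE 0.15) and Pclo by 0.09 (SE 0.21), each with an edgeR adjusted p of 0.999.

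In the ZDF PFC none of the 150 genes passed either (edgeR, 6 against 6, 8354 genes, 0% called), although here the casein arm had chosen the genes and nothing can be read from the count. At an unadjusted p under 0.05, 9 were higher (2.59% of all genes) and 7 lower on whole egg (4.13% of all genes), where 6.72% of all genes passed in either direction. DESeq2 called 7 of the 150, all lower on whole egg, and 70 genes in all (0.838%), and without rats 3 and 5 it called 0. The number of the 150 above 0 was smaller without rats 3 and 5. With them 130 of 150 log2 fold changes were above 0 (50.7% of all genes), with a median of 0.35, and without them 92 of 150 (48.1% of all genes), with a median of 0.04. With the relative log expression factors in place of TMM, 109 of 150 were above 0, with a median of 0.25. The share of all genes in that fit is not given here, so this count is not read further.

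Map1b was 0.73 higher on whole egg on the log2 scale (SE 0.35, edgeR adjusted p = 0.717), and the ranges of the diets overlapped. Mbp differed by -0.58 (SE 0.41, adjusted p = 0.742) and Rtn1 by 0.49 (SE 0.38, adjusted p = 0.762). Without rats 3 and 5 the difference was 0.38 for Map1b (SE 0.21), 0.07 for Rtn1 (SE 0.18) and, with the opposite sign, 0.20 for Mbp (SE 0.23), none past the threshold. Over both genotypes with genotype as a term, edgeR called 0 of 8289 genes (0%) and 0 of the 150 for diet. There, 8 of the 150 were at an unadjusted p under 0.05 against 1.95% of all genes, and 0 without rats 3 and 5, and DESeq2 called 0.

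The change that stood out between casein groups was in 7 transcripts, picked as those over 2-fold higher in casein ZDF than in casein lean PFC after their values were seen. AY172581.14 had 117, 1149, 904, 362, 24.0 and 27.0 CPM in casein ZDF rats 1, 3, 5, 9, 14 and 24. It had 13.3, 22.7 and 28.9 CPM (lowest, median, highest) in whole egg ZDF rats, 11.1, 15.8 and 38.1 CPM in casein lean rats and 13.8, 25.2 and 57.8 CPM in whole egg lean rats. Rats 1, 3, 5 and 9 were above every rat of the other groups, and rats 14 and 24 were inside the range of the lean rats.

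The same 4 rats were high for the set as a whole. The 7 transcripts summed to 1900, 20557, 9545 and 4313 CPM in rats 1, 3, 5 and 9, and to 577 and 498 CPM in rats 14 and 24. The sums were 155 to 655 CPM in whole egg ZDF rats and 187 to 1137 CPM in lean rats. The strain labels give ZDF for rats 1, 3, 5 and 9 and lean for rats 14 and 24, and they also give ZDF for casein rats 4, 8 and 12, whose sums were 207, 845 and 536 CPM.

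Genotype on casein was tested in a fit of all 24 libraries. edgeR called 5 of the 150 genes, all higher in ZDF rats and all of these 7, among 6 genes called of 8289 (0.0724%). The casein ZDF arm chose the genes, so this count is a description. AY172581.14 was 4.62 higher on the log2 scale (SE 0.80, edgeR adjusted p = 0.00746). ENSRNOG00000032274, with no symbol, was 5.51 higher (SE 0.97, adjusted p = 0.00746) and ENSRNOG00000033545 was 4.48 higher (SE 0.79, adjusted p = 0.00746). The 2 of the set that were not called had adjusted p of 0.0538 and 0.0800.

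The calls were lost in several settings. Without rats 3 and 5, edgeR called 0 of the 150 (0.0121% of all genes), with 18 at an unadjusted p under 0.05 (8.99% of all genes). DESeq2 also called 0, and AY172581.14 was 2.25 higher (SE 0.54, edgeR adjusted p = 0.374). Over the 7 transcripts the log2 differences were then 0.72 to 2.25, against 3.35 to 5.51 with all libraries. Leaving out rat 3 or rat 5 alone also left 0 calls among the 150, with AY172581.14 at 4.15 (SE 0.79, adjusted p = 0.0515) and 3.59 (SE 0.74, adjusted p = 0.0788). Leaving out rat 24 gave 12, and the share of all genes in that fit is not given here, so the 12 are not read as a gain. Among all genes, the fits that left out 1 rat called 1 to 191. DESeq2 on all libraries called 9 of the 150 and 185 genes in all (2.23%). The 9 held the 7 transcripts and also Map1b, which was lower in ZDF rats (-0.68, SE 0.20, DESeq2 adjusted p = 0.0385). In edgeR Map1b differed by -0.75 (SE 0.26, adjusted p = 0.387), and by -0.43 without rats 3 and 5 (SE 0.17, adjusted p = 0.518). limma-voom with quality weights called 0, and edgeR called 0 when genotypes followed the strain labels (4.72 for AY172581.14, SE 0.89, adjusted p = 0.0511). Without rats 3 and 5, the rule itself would have kept only 1 of the 7 among its 150, while 6 of the 7 still passed both of its thresholds.

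The 7 transcripts also moved together where none of these rats took part. Over the 12 lean libraries, their 21 pairs had a median Pearson correlation of log2 CPM of 0.86 (range 0.556 to 0.971). The other 143 genes had a median correlation of -0.12 with the mean of the 7, and a range of -0.838 to 0.865. All 7 were among the 10 most variable of the 150 genes, with SDs of 0.778 to 1.08. Their lean medians were 20.3 to 126 CPM, and spread was not compared with genes of a like level. With COX3, a protein-coding gene of the mitochondrial genome that is not one of the 150, the correlations of the 7 had a median of -0.68 (range -0.745 to -0.183). COX3 stood at 22104 CPM in rat 3 and 30341 CPM in rat 5, inside the range of 16340 to 38701 CPM in the other libraries.

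On whole egg, where neither arm chose the genes, no gene of the set passed. edgeR called 0 of the 150 (0% of 8289 genes), and 0 were at an unadjusted p under 0.05, where 2.92% of all genes passed. DESeq2 called 1 gene (0.0121%) and limma-voom 1 gene, neither among the 150. Of the 150 log2 differences between ZDF and lean rats 97 were above 0, with a median of 0.08, against 50.5% of all genes. AY172581.14 differed by -0.69 (SE 0.70) and Map1b by -0.04 (SE 0.25), each with an edgeR adjusted p of 1.00. This contrast was taken from the fit of all 24 libraries, so its SEs also drew on casein rats 3 and 5. Without these rats AY172581.14 differed by -0.68 (SE 0.50, edgeR adjusted p = 0.958) and Map1b by -0.03 (SE 0.15, adjusted p = 0.980).

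Whether the effect of diet differed by genotype was fitted as an interaction. It holds the casein ZDF arm that chose the 150 and in which the set of 7 was picked, so its counts are a description. edgeR called 0 of 8289 genes (0%), and the smallest adjusted p among the 150 was 0.0560. At an unadjusted p under 0.05 there were 22 of the 150 and 9.97% of all genes, and DESeq2 called 7 of the 150 and 44 genes (0.531%). AY172581.14 had an interaction of -5.31 on the log2 scale (SE 1.05), which was -2.93 (SE 0.74, edgeR adjusted p = 0.482) without rats 3 and 5. In that fit 22 of the 150 were again at an unadjusted p under 0.05, and its share of all genes is not given here. Over both diets, a contrast that also holds that arm, edgeR called 0 of the 150 for genotype, among 1 gene of 8289 (0.0121%), with 4 of the 150 at an unadjusted p under 0.05 (2.5% of all genes), and DESeq2 called 0 of the 150 (0.0362% of all genes).

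Outside the brain the same genes were scarce but measurable. Of the 150, 148 were present in the ZDF liver table, 142 in kidney and 141 in adipose tissue. In whole egg ZDF rats their median level was 0.348% of the PFC level in liver, 1.07% in kidney and 1.24% in adipose tissue. Their order of abundance was partly kept, with correlations across genes of log CPM with the PFC of 0.47 in liver and 0.52 in both kidney and adipose tissue, where genes are not independent replicates. Map1b was the highest of the named genes in whole egg ZDF adipose tissue, at a median of 409 CPM, against 97.5 CPM in kidney and 23.5 CPM in liver.

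The casein ZDF medians of liver, kidney and adipose tissue entered the rule as upper limits, so in these 3 tables counts of the genes by diet are a description beside the share of all genes. In ZDF liver, Mbp, which the study had listed for that comparison, was the 1 gene of 148 called by edgeR at an FDR of 5%, and it was lower on whole egg. It had 48.2, 25.9, 11.5, 22.0, 32.6 and 23.2 CPM in casein rats 1, 3, 5, 9, 14 and 24, and 13.6, 11.2, 10.0, 15.8, 6.09 and 12.9 CPM in whole egg rats 7, 11, 16, 18, 20 and 22. The diets overlapped only through casein rat 5. The mean was 27.2 ± 12.3 CPM in casein rats and 11.6 ± 3.36 CPM in whole egg rats (SD, n = 6 each), from 13 to 107 counts per library. The log2 fold change was -1.18 (SE 0.32, edgeR adjusted p = 0.0418), where 2.93% of the 9722 genes were called. The call held in 3 of 12 fits that left out 1 rat, with adjusted p from 0.0151 to 0.206.

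The other named genes in liver did not pass. The log2 fold change was -1.06 for Map1b (SE 0.34, adjusted p = 0.108), -1.62 for Rgs4 (SE 0.51, adjusted p = 0.0853), -1.62 for Pclo (SE 0.51, adjusted p = 0.0906) and -1.53 for Tspyl4 (SE 0.47, adjusted p = 0.0816, edgeR). Of the 148 genes, 21 were lower on whole egg at an unadjusted p under 0.05, where 6.58% of all genes were, and the median log2 fold change was -0.73 against -0.002 over all genes. Without rat 1 these were 10 of the 148 genes and -0.43. The share of all genes in that fit is not given here, so no excess of lower genes is read from it. On all libraries DESeq2 called 4 of the 148 (4.27% of all genes).

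In ZDF kidney edgeR called 0 of 142 genes and 0% of 7501, and DESeq2 called 0 of the 142 and 1 gene in all (0.0133%). At an unadjusted p under 0.05, 45 were lower on whole egg, where 3.41% of all genes were, with a median log2 fold change of -1.02 against 0.01. The summed level of the genes ran from 1476 to 10610 CPM on casein, and the highest library, that of rat 5, held 138171 counts, fewer than any other ZDF kidney library. Without rat 5, 12 of the 142 were lower at an unadjusted p under 0.05 and the median was -0.62, with the share of all genes in that fit not given here. Rtn1 had 102, 108, 275, 25.3, 59.4 and 23.2 CPM in casein rats 1, 3, 5, 9, 14 and 24 and 11.5 to 65.2 CPM in whole egg rats, so the diets overlapped, and its log2 fold change was -1.87 (SE 0.49, edgeR adjusted p = 0.665).

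In the remaining tissue tables no gene of the set passed. In ZDF adipose tissue edgeR called 0 of 141, among 2 of 7772 genes (0.0257%), with 8 of the 141 at an unadjusted p under 0.05 (6.39% of all genes) and 0 called by DESeq2 (0.232% of all genes). The median log2 fold change there was 0.32, and 0.04 without rat 11, whose library held 30819 counts and a summed level of 20085 CPM. In lean kidney edgeR called 0 of 141 (0% of 7607 genes), with 3 at an unadjusted p under 0.05 (3.14% of all genes), and DESeq2 called 0 (0.0131% of all genes). In lean adipose tissue it called 0 of 148 (0% of 8788 genes), with 8 at an unadjusted p under 0.05 (7.61% of all genes), and DESeq2 called 0 (0.159% of all genes). Diet was not tested in lean liver, where every column is of a casein rat.

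**Figure D5:**
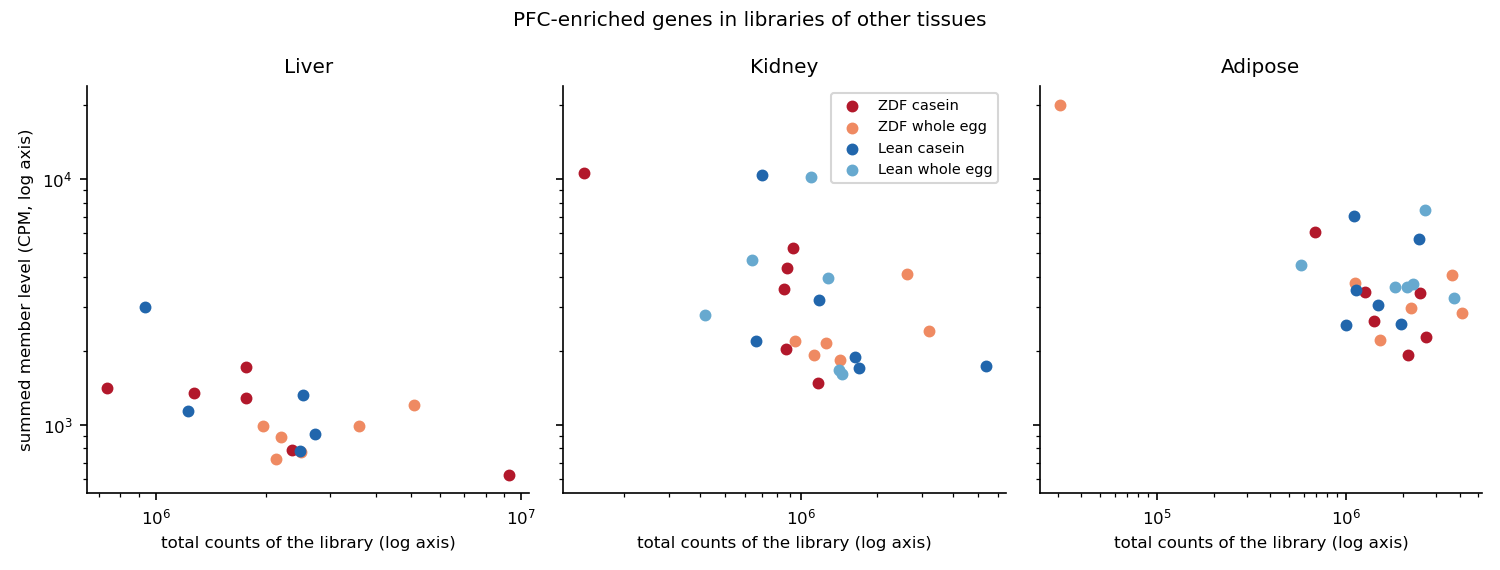
Summed level of the PFC-enriched genes in each liver, kidney and adipose library, in CPM, against the total count of the library (both axes log). The highest value, 20085 CPM, belongs to the whole egg ZDF adipose library of rat 11, which held 30819 counts.

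The plot of summed levels outside the brain shows a single high rat in 7 of the groups, which are listed among the additional observations.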

How the data were processed

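The series holds 96 QuantSeq 3′ mRNA libraries, of liver, kidney, adipose tissue and PFC from 24 rats. Lean liver counts were at hand for 5 casein rats and for no whole egg rat, so the other lean liver libraries were not analysed. Deposited values are raw read counts of each gene. The authors aligned reads to the Ensembl rat genome with STAR after a FastQC check and filtered genes with low counts. The tool versions were not given in the sources used here. Columns of the authors' comparisons (log2 fold changes, p-values and Wald scores) and the microRNA tables were not used.

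CPM are counts scaled to the column total. From the deposited counts, edgeR 4.0.16 (R 4.3.3) gave TMM factors and two-sided quasi-likelihood tests of all genes of a table, or of the genes both PFC tables share, with Benjamini-Hochberg adjustment and an FDR of 5%. Group and rat were taken from the column names. Each replicate in a group is a separate rat, with 6 in a group and 5 in casein lean liver. The ZDF liver fit leaves out a lean rat's casein library that shares its table. PFC totals ran from 67861 to 7080897 counts, and at the lowest depth a single count is worth more than 10 CPM. The test was tried on simulated counts.

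Alternatives were DESeq2 1.42.0, relative log expression and upper quartile factors, a minimum count of 10, limma-voom (limma 3.58.1) with quality weights, leaving out rats 3 and 5 or each rat in turn, and the genotypes of the sample labels. DESeq2 without rats 3 and 5, and leaving out rats in the liver, kidney and adipose tables, were chosen after seeing the data. The members, lists and tests were chosen with earlier results of these data known. Genes were to be named by level, by p in each test, by spread, by nearness to a threshold and by list, but only those with a symbol are named here, with 2 identifiers that rose. Of 416 symbols in the lists for neuronal, glial and other cell types, 20 have an identifier and 5 are among the 150 genes, so counts by list are void.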

Additional observations from a re-analysis of the deposited data

Results flagged for a closer look

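In 13 of 58 groups of 5 or 6 libraries a single rat lay far from the rest by Dixon's ratio, where chance gives about 1 in 20. For the summed level of the PFC-enriched genes these were whole egg lean adipose rat 13 at 7491 CPM (others 3281 to 4441), casein lean kidney rat 4 at 10378 CPM (others 1692 to 3220) and whole egg lean kidney rat 2 at 10180 CPM (others 1607 to 4696). The casein lean liver of rat 19 stood at 3016 CPM (others 779 to 1323), the casein ZDF adipose tissue of rat 14 at 6084 CPM (others 1925 to 3470), the whole egg ZDF adipose tissue of rat 11 at 20085 CPM (others 2217 to 4072) and the whole egg ZDF kidney of rat 16 at 4113 CPM (others 1824 to 2400). The libraries of rats 19, 14 and 11 held the fewest counts of their groups, and their part in the values was not tested.

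Mbp was high in 4 of the same libraries, at 255 CPM in casein lean kidney rat 4 (others 9.15 to 75.5), 384 CPM in whole egg lean kidney rat 2 (others 17.9 to 128), 102 CPM in whole egg ZDF kidney rat 16 (others 14.4 to 27.2) and 941 CPM in whole egg ZDF adipose rat 11 (others 45.9 to 82.7). In the PFC, Rtn1 was low in whole egg ZDF rat 11 at 2625 CPM (others 3241 to 3594), and Rgs4 was high in casein lean rat 4 at 422 CPM (others 284 to 324).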

How the results depend on the processing

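Of 1017 values recomputed under an alternative, 864 kept their size or call and the rest moved. Without rats 3 and 5 the log2 difference for diet in the ZDF PFC changed sign for Mbp (-0.58 to 0.20) and Rgs4 (0.15 to -0.20), and uncalled differences of Mbp, Rgs4, Rtn1, Chd5 and Tspyl4 changed sign in some other PFC tests. The median log2 fold change of the 150 did change sign without rats 3 and 5 for diet over both genotypes (0.11 to -0.03) and for genotype over both diets (-0.10 to 0.04), and with DESeq2 without them for genotype on casein (-0.27 to 0.005). Genes called (of all, then of the 150) were 70 and 7 with DESeq2 for diet in the ZDF PFC (0 and 0 in edgeR) and 44 and 7 for the interaction (0 and 0). For genotype on casein (6 and 5) they were 185 and 9 with DESeq2, 0 and 0 with limma-voom, 1 and 0 without rats 3 and 5, 3 and 0 with DESeq2 without them, 0 and 0 with the genotypes of the labels, and 10 and 7 in rats whose 2 sources agree. For genotype over both diets (1 gene) it was 3 with DESeq2, 4 with DESeq2 without rats 3 and 5, and 0 with the genotypes of the labels or in rats whose sources agree. For genotype on whole egg (0) it was 1 with DESeq2, with limma-voom, without rats 3 and 5, and with DESeq2 without them. DESeq2 called 4 of the 148 genes in ZDF liver (edgeR 1), and in all 1 gene in ZDF kidney (0), 18 in ZDF adipose tissue (2), 1 in lean kidney (0) and 14 in lean adipose tissue (0).

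Leaving out 1 rat gave 0 to 26 genes and 0 to 7 of the 150 for diet in the ZDF PFC, 1 to 191 and 0 to 12 for genotype on casein, 0 to 36 and 0 to 7 for the interaction, 1 to 2 and 0 for genotype over both diets, 0 to 2 and 0 for genotype on whole egg, and 0 for diet in the lean PFC and over both genotypes. It gave 191 to 386 genes and 0 to 2 of the 148 in ZDF liver and 0 to 1 genes and 0 of the 142 in ZDF kidney. Without rat 11, 6 genes were called in ZDF adipose tissue. No paired analysis was possible because each rat had 1 diet and 1 genotype, and rat numbers are shared only across tissues. Depth was low for rats 3 and 5, which are 2 of the 6 casein ZDF PFC libraries, and for the adipose library of rat 11.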
